A study of Homo sapiens with 8 samples.

Results

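The circadian clock genes described here are 10 genes taken by name, CLOCK, ARNTL, PER1, PER2, PER3, CRY1, CRY2, NR1D1, NR1D2 and DBP, and each of the 10 has a row among the 14526 genes of the deposited RPKM table. RPKM is a read count scaled to gene length and library size. The study sequenced RNA from 4 control cultures and from 4 cultures given 10 mM sodium benzoate (SB), a food preservative, for 24 h before harvest. All 8 samples carry the label HepG2, a cell line from a human liver carcinoma. No genetic change is named for either group. The controls are labelled only as such, and the labels name no vehicle.

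In mammalian cells the clock is a loop of transcription and translation. CLOCK and ARNTL (also called BMAL1) pair and switch on the PER and CRY genes, whose proteins enter the nucleus and hold that pair back until they are degraded, which takes about a day for each round. A second loop runs through the nuclear receptors NR1D1 and NR1D2 (REV-ERBα and REV-ERBβ), which repress ARNTL, and through the ROR receptors, which activate it at the same sites. DBP, with TEF and HLF, binds D-boxes and carries the rhythm to output genes, which in liver include many genes of lipid, glucose and drug metabolism. Cells in culture keep this loop, but each cell runs at its own phase unless the culture is synchronised. The sources used here describe no synchronising step, and every culture was harvested at 1 time. The values below are therefore levels over a population of cells, not phases or amplitudes, and in such bulk samples fewer cells expressing a gene and less RNA in each cell cannot be told apart.

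The label was checked against genes that define hepatocytes. Of 20 such genes, 18 have no row in the table, ALB, AFP, APOA1 and HNF4A among them, and of the other 2, TF (transferrin) was at 0.192 ± 0.0188 RPKM in the controls and 0.379 ± 0.0748 RPKM after SB (SD, n = 4 each). Of 6 genes of the neuronal cytoskeleton, 4 have a row (NEFL, NEFM, INA and TUBB3), and they sum to between 84.4 and 93.8 RPKM in the controls and between 56.9 and 59.3 RPKM after SB. NEFL and NEFM fell, to means of 27.1 RPKM from 42.2 and of 17.7 RPKM from 38.0, while INA and TUBB3 rose, to 9.10 RPKM from 5.29 and to 4.30 RPKM from 2.95. For fibroblast genes, 4 of 7 have a row, with sums from 6.63 to 8.97 RPKM in the controls and from 6.62 to 6.98 RPKM after SB, while COL1A2 and DCN have none. For leukocyte genes it is 2 of 6, with sums from 2.39 to 2.83 RPKM and from 2.53 to 3.17 RPKM, while PTPRC and CD14 have none. The markers thus go against the label, so the cells are called here only cells labelled HepG2, and the part of this in the results was not tested. Among the libraries, control replicate 1 stood apart. The chi-square of its reads per degree of freedom against the other controls was between 33.4 and 38.4, against at most 3.80 for any other pair within a group, and values without it are given beside the clock genes whose sign, call or size moved by over 1.5 times.

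The sequences near the gene starts that bear the best known clock motifs are shown first, because the members that share a motif can then be set beside their changes. RefSeq windows (GRCh38.p14, the coordinates of hg38) from 250 bases before to 50 bases after a gene start were searched on both strands for the E-box CACGTG and the E′-box CACGTT, through which CLOCK and ARNTL act, for the D-box (TTATGTAA or TTACGTAA), for AGGTCA, the core of the sites bound by the ROR and NR1D receptors (below, the ROR motif), and for the cAMP response element TGACGTCA. All 10 genes had a window, 15 windows in all, since 5 genes have more than 1 start. None of these motifs overlapped another in the windows shown. A D-box stood in windows of 3 of the 10 genes, PER2, PER3 and NR1D2, and in 1.01% of all 35116 RefSeq windows. An E-box stood in PER1 and NR1D2 (7.26% of all windows), an E′-box in CLOCK, PER2, CRY1, CRY2 and NR1D1 (5.34%), a ROR motif in ARNTL, PER1 and CRY2 (13.8%), and the cAMP response element in none of the 10 (1.85%). DBP had no match in its window. A match is a string of letters in this window and was not shown here to be bound.

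The stretches below run from 250 bases before the start to 10 bases after it, 5′ to 3′ on the strand of the gene, with the matches in capitals. PER2, PER3 and NR1D2 are shown for their D-boxes, and PER1 because it carries the E-box and a ROR motif in reverse. PER2 lies on the minus strand at chr2:238288601-238288860, PER3 on the plus strand at chr1:7784041-7784300, NR1D2 (its second start) on the plus strand at chr3:23945871-23946130 and PER1 on the minus strand at chr17:8152395-8152654.

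PER2: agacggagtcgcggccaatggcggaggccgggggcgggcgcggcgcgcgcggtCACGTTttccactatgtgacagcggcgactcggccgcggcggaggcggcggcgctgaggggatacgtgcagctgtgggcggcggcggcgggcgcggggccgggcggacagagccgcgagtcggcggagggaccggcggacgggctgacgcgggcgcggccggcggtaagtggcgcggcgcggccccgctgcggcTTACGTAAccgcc

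PER3: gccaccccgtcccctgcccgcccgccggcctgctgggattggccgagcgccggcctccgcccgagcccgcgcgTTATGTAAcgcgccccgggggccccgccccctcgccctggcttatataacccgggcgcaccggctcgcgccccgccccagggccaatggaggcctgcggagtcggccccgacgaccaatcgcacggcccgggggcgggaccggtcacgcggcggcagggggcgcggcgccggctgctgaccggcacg

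NR1D2: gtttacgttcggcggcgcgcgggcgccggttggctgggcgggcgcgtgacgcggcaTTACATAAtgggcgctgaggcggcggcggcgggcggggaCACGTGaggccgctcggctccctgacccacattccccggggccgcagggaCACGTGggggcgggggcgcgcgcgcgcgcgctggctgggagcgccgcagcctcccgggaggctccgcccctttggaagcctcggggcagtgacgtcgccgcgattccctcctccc

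PER1: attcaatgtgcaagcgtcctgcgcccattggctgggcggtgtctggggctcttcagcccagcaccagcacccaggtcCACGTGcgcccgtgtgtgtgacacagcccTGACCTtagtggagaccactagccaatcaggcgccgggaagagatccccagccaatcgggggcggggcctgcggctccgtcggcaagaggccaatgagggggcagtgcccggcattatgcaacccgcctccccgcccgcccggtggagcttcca

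**Figure D1:**
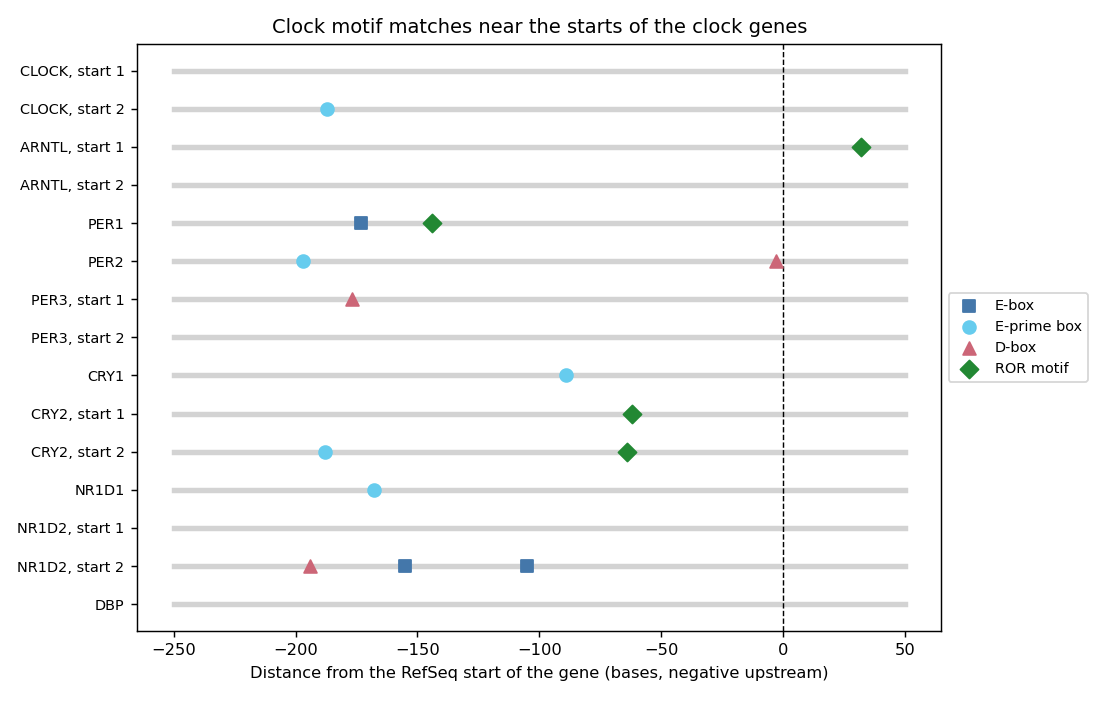
Matches to 4 clock motifs in the RefSeq windows of the 10 clock genes; the x axis is the distance in bases from the gene start, negative upstream, each grey bar is 1 window and each symbol 1 match. D-boxes stand in windows of 3 genes, PER2, PER3 and NR1D2, and DBP has no match.

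The comparison asked which clock genes differ between SB-treated and control cells. Of the 10 genes, 4 rose (CLOCK, PER2, PER3 and NR1D2), 3 fell (ARNTL, NR1D1 and DBP) and 3 did not pass the test (PER1, CRY1 and CRY2), the threshold being an adjusted p-value of 0.05. The test was limma, fitted to log2(RPKM + 1), and p-values were adjusted for the 14526 genes by the Benjamini-Hochberg method. Over all genes 33.0% rose and 32.6% fell, 65.6% together, so the 7 of 10 is near the share of all genes. The members' median absolute log2 fold change was 0.31, beside 0.20 for all genes, and their median log2 fold change was 0.08, beside 0.0045. For the same 7 genes the groups did not overlap, 4 with every SB-treated value above every control (31.0% of all genes) and 3 with every one below (30.5%). For each of the 7 the exact permutation test of 4 against 4, two-sided, gave p = 0.0286, the smallest that this design allows. Groups that do not overlap always give this value, so it restates that separation, as it does for the ratios with groups apart below.

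**Figure D2:**
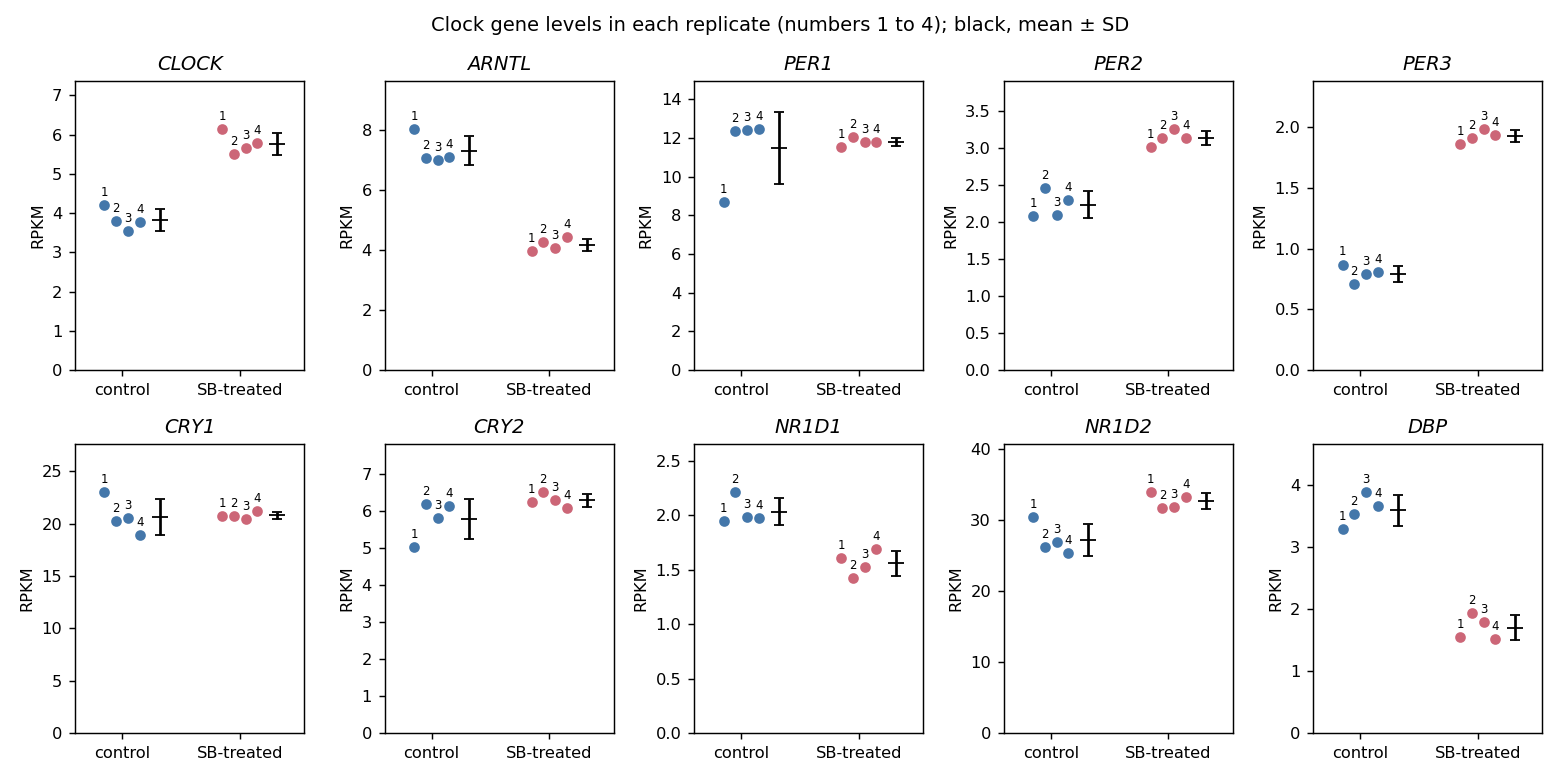
RPKM of each clock gene in each replicate (y axis, from 0), controls in blue and SB-treated in red, with the replicate number above each point and the mean ± SD (n = 4) in black. The groups lie apart for CLOCK, ARNTL, PER2, PER3, NR1D1, NR1D2 and DBP and overlap for PER1, CRY1 and CRY2.

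The positive arm moved in opposite directions. CLOCK, a DNA-binding factor with acetyltransferase activity of its own, lies on the minus strand at chr4:55427903-55546909 and has 23 exons in the canonical transcript (hg38, GENCODE, as for all gene positions here). Its level was 4.21, 3.79, 3.55 and 3.77 RPKM in control replicates 1 to 4 and 6.13, 5.49, 5.65 and 5.78 RPKM in SB-treated replicates 1 to 4. Every SB-treated value lay above every control value. The mean rose 1.51-fold, from 3.83 ± 0.277 to 5.76 ± 0.274 RPKM (mean ± SD, n = 4 each), which is 0.49 ± 0.049 (SE) in log2 units (limma, adjusted p = 2.11e-05). Its main partner ARNTL lies on the plus strand at chr11:13276652-13387266. ARNTL was at 8.03, 7.08, 7.02 and 7.11 RPKM in the controls and at 3.97, 4.26, 4.07 and 4.42 RPKM after SB. The groups were far apart, and control replicate 1 was the highest control. Its mean fell 1.75-fold, from 7.31 ± 0.483 to 4.18 ± 0.204 RPKM (mean ± SD, n = 4 each), which is -0.68 ± 0.049 (SE) in log2 units (limma, adjusted p = 2.88e-06). Only 3.27% of all genes had a larger absolute log2 fold change.

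The ratio of CLOCK to ARNTL within a library, which does not depend on how libraries are scaled, went from below 1 to above 1. It was 0.524, 0.535, 0.506 and 0.530 in the controls and 1.55, 1.29, 1.39 and 1.31 after SB. The geometric mean of the ratio rose 2.63-fold, a log2 difference of 1.40 (exact permutation test, two-sided p = 0.0286, adjusted p = 0.0357 over the 5 ratios compared). The paralogues that can stand in for the pair both rose, each with groups apart. ARNTL2, which also pairs with CLOCK, rose 1.37-fold, from 5.80 ± 0.428 to 7.92 ± 0.190 RPKM (mean ± SD, n = 4 each), with a log2 fold change of 0.39 (limma adjusted p = 6.09e-05). NPAS2, the paralogue of CLOCK, rose 1.21-fold, from 2.48 ± 0.224 to 2.99 ± 0.0637 RPKM (mean ± SD, n = 4 each), with a log2 fold change of 0.20 (limma adjusted p = 0.0043). In the controls ARNTL had a higher RPKM than ARNTL2, and in the SB-treated replicates the order of the means was the other way.

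The PER genes, which encode the repressors that carry CRY proteins into the nucleus, changed unequally. PER3 lies on the plus strand at chr1:7784291-7845177 and had the lowest level of the 10 genes in the controls. It was at 0.868, 0.708, 0.789 and 0.808 RPKM in the controls and at 1.86, 1.91, 1.98 and 1.93 RPKM after SB. Each SB-treated value was above each control value by more than the whole range of either group. The mean rose 2.42-fold, from 0.793 ± 0.0662 to 1.92 ± 0.0490 RPKM (mean ± SD, n = 4 each), and its mean read number from 201 to 513. In log2 units this is 0.70 ± 0.037 (SE; limma, adjusted p = 6.52e-07). Because the pseudocount of 1 understates the change of a gene at this level, the value by voom on the recovered reads was 1.28. On the opposite strand UTS2, which has no row, shares 10.7% of the annotated exon bases of PER3, and reads of the pair may be mixed if the counting did not use strand. PER2, at chr2:238244044-238290102 on the minus strand, was at 2.08, 2.46, 2.096 and 2.30 RPKM in the controls and at 3.02, 3.14, 3.25 and 3.13 RPKM after SB. The groups again lay apart, by less than for PER3. Its mean rose 1.40-fold, from 2.23 ± 0.178 to 3.13 ± 0.0956 RPKM (mean ± SD, n = 4 each), which is 0.36 ± 0.044 (SE) in log2 units (limma, adjusted p = 8.38e-05).

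PER1, which many signals induce quickly through its promoter, lies on the minus strand at chr17:8140472-8156506 and did not pass the test. It was at 8.67, 12.4, 12.4 and 12.5 RPKM in the controls and at 11.5, 12.1, 11.8 and 11.8 RPKM after SB. Control replicate 1 lay far below the other controls, and the SB-treated values lay between it and them. The log2 fold change was 0.05 (95% interval from -0.17 to 0.27, limma adjusted p = 0.671). Without control replicate 1 it was -0.067 with a limma adjusted p of 0.0306, so both the sign and the call turned without this library, and the GC and length correction also turned the sign, to -0.11. Within a library, the ratio of PER3 to PER2 rose from 0.417, 0.288, 0.376 and 0.352 in the controls to 0.617, 0.609, 0.609 and 0.617 after SB, a log2 difference of 0.79. With a pseudocount of 1 RPKM that difference was 0.35, still past the threshold. The GC and length correction, which was made on log2(RPKM + 1) and so carries the same pseudocount, gave 0.39, also past it. The ratio of PER1 to PER2 was lower after SB, from between 4.16 and 5.91 in the controls to between 3.63 and 3.84, a log2 difference of -0.44, which no longer passed with a pseudocount of 1 RPKM (-0.31, exact permutation test, adjusted p = 0.0714). Both ratios had groups apart (exact permutation test, two-sided p = 0.0286 for each, adjusted p = 0.0357 over the 5 ratios).

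The CRY genes encode the strongest repressors of the CLOCK and ARNTL pair, and neither passed the test. CRY1, at chr12:106991364-107093549 on the minus strand, was at 23.0, 20.3, 20.5 and 18.9 RPKM in the controls and at 20.8, 20.8, 20.4 and 21.2 RPKM after SB. CRY2, at chr11:45847118-45883248 on the plus strand, was at 5.02, 6.20, 5.81 and 6.14 RPKM in the controls and at 6.25, 6.52, 6.30 and 6.09 RPKM after SB. In both genes the groups overlapped, and control replicate 1 was the control farthest from the SB-treated mean. The log2 fold change of CRY1 was 0.01 (95% interval from -0.11 to 0.13, limma adjusted p = 0.866) and that of CRY2 was 0.11 (95% interval from -0.02 to 0.23, limma adjusted p = 0.130). Without control replicate 1 they were 0.062 (limma adjusted p = 0.108) and 0.048 (limma adjusted p = 0.187). The CRY2 value followed the library scaling, since without TMM factors (the authors' scaling of library sizes) it was 0.20 with a limma adjusted p of 0.0154, but the median log2 ratio of all genes then moved from 0.0077 to 0.11. The ratio of CRY1 to CRY2 lay between 3.08 and 4.59 in the controls and between 3.18 and 3.48 after SB (log2 difference -0.11, exact permutation test, two-sided p = 0.571).

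The nuclear receptors of the second loop moved apart. NR1D1, at chr17:40092793-40100589 on the minus strand, was at 1.95, 2.22, 1.99 and 1.98 RPKM in the controls and at 1.60, 1.42, 1.52 and 1.69 RPKM after SB. The highest SB-treated value was below the lowest control value. Its mean fell 1.30-fold, from 2.03 ± 0.124 to 1.56 ± 0.113 RPKM (mean ± SD, n = 4 each), which is -0.24 ± 0.045 (SE) in log2 units (limma, adjusted p = 9.42e-04) and -0.38 by voom on the recovered reads. NR1D1 overlaps the end of THRA, the gene of a thyroid hormone receptor, on the opposite strand, and 18.0% of its annotated exon bases are shared with THRA. The library kit keeps strand, but the strand setting of the counting is not given in the sources used here, so reads of the pair may be mixed. THRA also fell, from 8.59 ± 0.683 to 6.56 ± 0.184 RPKM (mean ± SD, n = 4 each), with a log2 fold change of -0.34 (limma adjusted p = 3.37e-04).

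NR1D2, at chr3:23945286-23980617 on the plus strand, had the highest level of the 10 genes in both groups. It was at 30.5, 26.2, 26.9 and 25.3 RPKM in the controls and at 33.9, 31.6, 31.8 and 33.2 RPKM after SB. The groups did not overlap, although control replicate 1 came close to the lowest SB-treated value. Its mean rose 1.20-fold, from 27.2 ± 2.26 to 32.6 ± 1.11 RPKM (mean ± SD, n = 4 each), which is 0.26 ± 0.056 (SE) in log2 units (limma, adjusted p = 0.0027). The ratio of NR1D1 to NR1D2 fell from between 0.0639 and 0.0846 in the controls to between 0.0450 and 0.0509 after SB, a log2 difference of -0.65 (exact permutation test, two-sided p = 0.0286, adjusted p = 0.0357 over the 5 ratios).

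DBP, an activator that binds D-boxes and is itself a direct target of CLOCK and ARNTL, had the largest absolute log2 fold change of the 10 genes on the log2(RPKM + 1) scale. It lies on the minus strand at chr19:48630030-48637379. It was at 3.30, 3.53, 3.89 and 3.66 RPKM in the controls and at 1.55, 1.94, 1.79 and 1.52 RPKM after SB. Every SB-treated value was below every control value, and the gap between the groups was wider than the range of either. The mean fell 2.11-fold, from 3.60 ± 0.250 to 1.70 ± 0.201 RPKM (mean ± SD, n = 4 each), which is -0.77 ± 0.060 (SE) in log2 units (limma, adjusted p = 4.68e-06). It rested on few reads, a mean of 257 in the controls and 128 after SB. SPHK2 shares 10.2% of the annotated exon bases of DBP on the opposite strand, and its level, 4.96 ± 0.708 RPKM in the controls and 5.34 ± 0.588 RPKM after SB (SD, n = 4 each), did not pass the test (log2 fold change 0.092, limma adjusted p = 0.407, and 0.011 without control replicate 1). On the scale of voom on the recovered reads, which adds no pseudocount of 1 RPKM, the rise of PER3 (1.28) was larger in absolute size than the fall of DBP (-1.08).

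**Figure D3:**
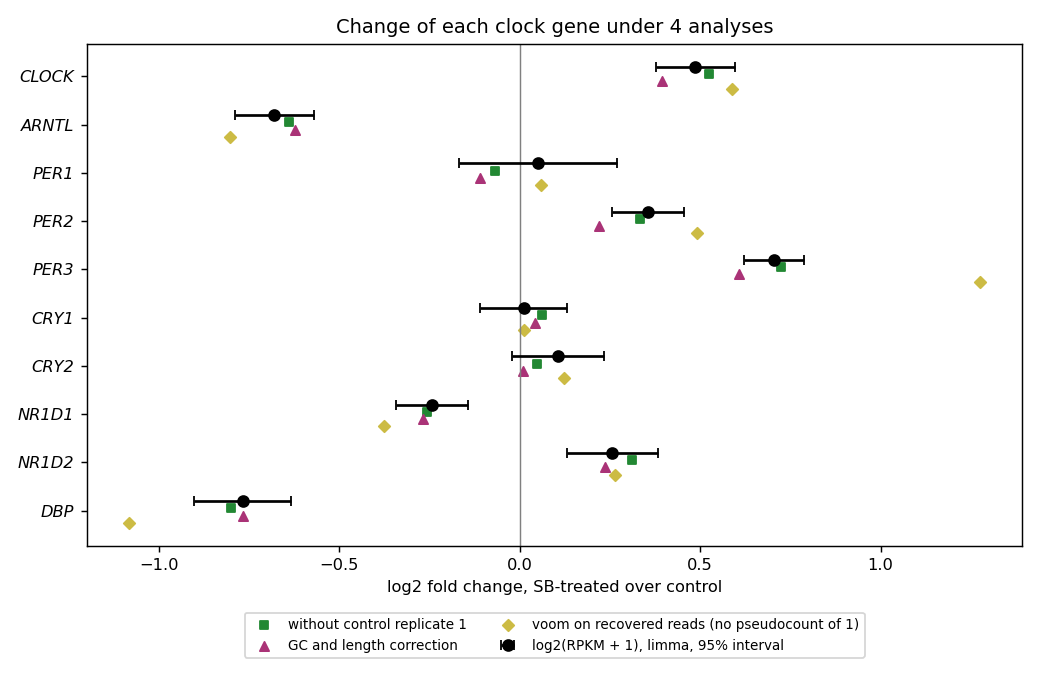
Log2 fold change of each clock gene, SB-treated over control (x axis), by limma on log2(RPKM + 1) with its 95% interval (black), without control replicate 1 (green), after a correction for GC content and length (purple) and by voom on the recovered reads (yellow). The 7 called genes keep their side of 0 under all 4, and PER1 changes side.

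By level, the order of the 10 genes differed between the groups in its middle and lower part. In both groups NR1D2, CRY1 and PER1 came first, in that order and with ranges apart. In the controls ARNTL, CRY2 and CLOCK followed with ranges apart, then DBP, PER2, NR1D1 and PER3. There the ranges of CLOCK and DBP overlapped, as did those of PER2 and NR1D1. After SB the order below PER1 was CRY2, CLOCK, ARNTL, PER2, PER3, DBP and NR1D1, where CRY2 and CLOCK overlapped and so did PER3, DBP and NR1D1 as neighbours. These RPKM are per length, so levels can be set side by side between genes, within the lengths the authors counted, from 1811 bases for DBP to 11109 bases for CLOCK.

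The 4 genes that rose had a GC content of 37.6% (CLOCK), 52.5% (PER2), 46.5% (PER3) and 38.3% (NR1D2) in their canonical transcripts. The 3 that fell were at 45.7% (ARNTL), 58.9% (NR1D1) and 65.2% (DBP), and the median of all genes with a value was 48.5%. After a smooth function of GC content and length was taken out of each library, the log2 fold changes were 0.39 for CLOCK, 0.22 for PER2, 0.61 for PER3, 0.24 for NR1D2, -0.62 for ARNTL, -0.27 for NR1D1 and -0.77 for DBP, and each stayed past the threshold. Of these shifts the one of PER2, from 0.36 to 0.22, was over 1.5 times. The 3 genes with a D-box in their windows, PER2, PER3 and NR1D2, were all among those that rose, beside 33.0% of all genes. Of the other motifs, only the E′-box had called genes in both directions. Of the genes with an E′-box CLOCK and PER2 rose, NR1D1 fell and CRY1 and CRY2 did not pass, of those with a ROR motif ARNTL fell and PER1 and CRY2 did not pass, and of those with an E-box NR1D2 rose and PER1 did not pass. These genes are too few for a test, and the motif share was not compared with the changes of all genes.

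Other genes of the clock pathway were described from 6 lists. Of 48 genes 44 have a row, of which 21 rose, 14 fell and 9 did not pass the test, and their median log2 fold change was 0.07. CIART and CSNK1E are among the genes with no row. The 35 called are 79.5% of those with a row, beside 65.6% of all genes. The lists mixed both directions, except the CLOCK and ARNTL paralogues given above.

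Among the 7 second-loop and D-box factors with a row, 2 rose, 2 fell and 3 did not pass. TEF, a D-box activator related to DBP, rose 1.76-fold, from 2.97 ± 0.237 to 5.24 ± 0.160 RPKM (mean ± SD, n = 4 each), with a log2 fold change of 0.65 (limma adjusted p = 3.15e-06). HLF, the third of these activators, rose 1.20-fold, from 1.47 ± 0.0469 to 1.77 ± 0.136 RPKM (mean ± SD, n = 4 each), with a log2 fold change of 0.16 (limma adjusted p = 0.0066) and 0.26 by voom. DBP therefore fell while both related factors rose. NFIL3, which represses at the same sites, was at a log2 fold change of -0.047 (limma adjusted p = 0.321), and at 0.040 after the GC and length correction. BHLHE40 (DEC1), a repressor that competes for E-boxes, fell 1.69-fold, from 24.5 ± 0.407 to 14.5 ± 0.167 RPKM (mean ± SD, n = 4 each), with a log2 fold change of -0.72 (limma adjusted p = 2.23e-07). Its paralogue BHLHE41 was at 0.0035 (limma adjusted p = 0.957). RORB was low and fell from 0.461 ± 0.0849 to 0.262 ± 0.0554 RPKM (mean ± SD, n = 4 each), with a log2 fold change of -0.21 (limma adjusted p = 0.0043). RORA, the ROR receptor with the higher level of the pair, was at 0.091 (limma adjusted p = 0.0805) and passed the threshold without control replicate 1, at 0.12 (limma adjusted p = 0.0077), while after the GC and length correction it was at -0.0097 (limma adjusted p = 0.824). Because RORB lies below 1 RPKM, its fall by voom on the recovered reads was larger, at -0.82.

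Of the 9 clock kinases with a row, 5 rose and 3 fell, and none of the named changes reached 1.4-fold. PRKAA2, a catalytic subunit of AMPK, which marks CRY proteins for degradation, rose 1.33-fold with a log2 fold change of 0.39 (limma adjusted p = 1.90e-04). The other catalytic subunit, PRKAA1, did not pass, at -0.16 (limma adjusted p = 0.121). PRKAA1 was at -0.061 without control replicate 1. After the GC and length correction it was at -0.17 and passed (limma adjusted p = 0.0041). GSK3A, a kinase of several clock proteins, rose 1.21-fold with 0.28 (limma adjusted p = 0.0025). CSNK2B and CSNK2A1, subunits of casein kinase 2, fell with -0.36 (limma adjusted p = 2.12e-04) and -0.31 (limma adjusted p = 3.13e-05). CSNK2A2, another subunit of this kinase, went the other way and rose 1.15-fold with 0.20 (limma adjusted p = 3.56e-04). After the GC and length correction CSNK2A2 was at 0.30. Of the 7 ubiquitin ligases and proteases, 3 rose and 1 fell. FBXL21, counted in this list, is also named FBXL21P, the symbol of a pseudogene in human. Its RNA rose with a log2 fold change of 0.26 (limma adjusted p = 0.0040). BTRC, which targets PER proteins, rose with 0.19 (limma adjusted p = 0.0019). USP7, a deubiquitinase that stabilises CRY proteins, fell with -0.14 (limma adjusted p = 0.0157). After the GC and length correction FBXL21 was at 0.46, BTRC at 0.12 and USP7 at -0.24. Without TMM factors BTRC was at 0.29, and USP7 was at -0.042 and no longer passed.

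Of the 12 cofactors, 7 rose and 3 fell. KMT2A, a histone methyltransferase that works with CLOCK, rose 1.38-fold with a log2 fold change of 0.45 (limma adjusted p = 2.02e-05), and EP300, an acetyltransferase and coactivator, rose 1.20-fold with 0.26 (limma adjusted p = 3.44e-04). TIPIN, the partner of TIMELESS, fell 1.33-fold with -0.40 (limma adjusted p = 2.75e-04). HDAC3, the deacetylase that the NR1D receptors recruit, fell 1.29-fold with -0.36 (limma adjusted p = 8.04e-06). After the GC and length correction EP300 was at 0.10 and TIPIN at -0.16, each moved by over 1.5 times and still past the threshold.

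All 7 output genes with a row passed the test, 2 higher and 5 lower, beside 65.6% of all genes. PPARA, the receptor that drives fatty acid oxidation, rose 1.98-fold, from 1.98 ± 0.153 to 3.92 ± 0.0989 RPKM (mean ± SD, n = 4 each), with a log2 fold change of 0.72 (limma adjusted p = 1.12e-06). WEE1, a kinase that holds back mitosis, rose 1.103-fold with 0.13 (limma adjusted p = 0.0043, and 0.23 without TMM factors). KLF10 fell 1.996-fold, from 24.8 ± 1.72 to 12.4 ± 0.300 RPKM (mean ± SD, n = 4 each), with -0.94 (limma adjusted p = 6.24e-07), and its relative KLF9 fell 1.499-fold, from 17.9 ± 1.33 to 11.96 ± 0.479 RPKM (mean ± SD, n = 4 each), with -0.54 (limma adjusted p = 1.70e-05). Both are zinc finger repressors of the Krüppel-like family.

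**Figure D4:**
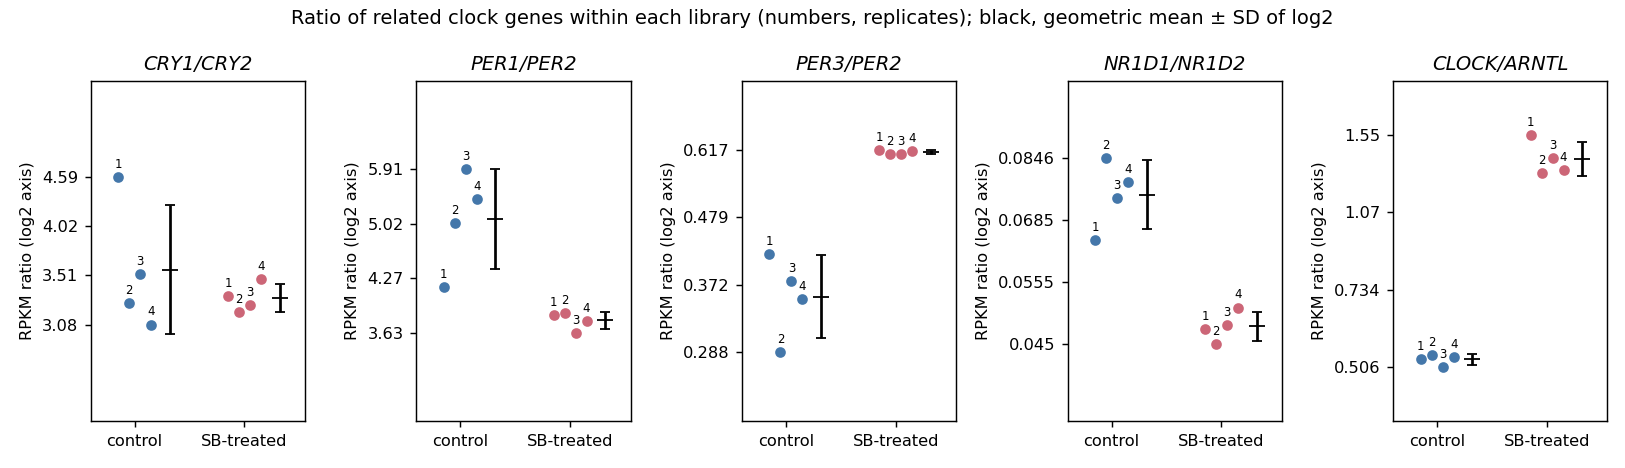
Ratio of the RPKM of related clock genes within each library (y axis, log2 scale), controls in blue and SB-treated in red, with the replicate number above each point and the geometric mean ± SD of the log2 values (n = 4) in black. The groups lie apart for 4 of the 5 ratios and overlap for CRY1/CRY2.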

How the data were processed

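The authors sequenced stranded total RNA libraries with 50-base single reads, mapped them to hg38 with TopHat2 2.1.0, counted reads per gene with featureCounts 1.5.0, filtered out genes that did not exceed 1 CPM in 2 or more samples and scaled library sizes by TMM in edgeR 3.16.5. They deposited RPKM values for each library. The table also holds a log2 fold change, a mean level, a p-value and an FDR from the authors' own comparison, which were not used, and 0 columns of per-sample values were left unused. The unit was taken from the values. The sources used here call the 4 replicates of each group biological without saying how the cultures were separated, and p-values measure only the spread between these samples.

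Whole reads were recovered as the smallest whole numbers that fit each gene's 8 RPKM values with a whole gene length, for 100% of genes within 0.01 reads. They sum to between 36990091 and 44878446 per library, with TMM factors from 0.957 to 0.969 in the controls and from 1.03 to 1.04 after SB. Differences were tested on log2(RPKM + 1) with limma 3.58.1 in R 4.3.3 (lmFit, eBayes), with no further filter, and p-values were adjusted by the Benjamini-Hochberg method for 14526 genes. The read recovery and the limma fit were first tested on simulated data. Ratios of members and single genes were compared by exact permutation in SciPy 1.17.1. GC content and positions come from GENCODE release 44 (96.99% of genes matched) and promoter windows from RefSeq. Same-numbered replicates had correlations of deviations of 0.38, 0.327, 0.173 and -0.16. Those of differently numbered replicates ran from -0.39 to 0.29. These values do not settle whether the numbers pair the samples. The main fit used no pairing, and a fit with the replicate number as a block is among the alternatives. Alternatives were a pseudocount of 0.1, a minimum mean of 1 RPKM, no TMM factors, median-of-ratios scaling, an intensity trend, voom on reads recovered as above, a replicate block, a GC and length correction, and leaving out each sample.

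The members and lists were chosen with earlier results of these data known. Named besides the members are up to 2 genes with the largest rise and 2 with the largest fall among those called in each list. NFIL3, BHLHE41, RORA, CSNK2A2 and PRKAA1 and the overlapping genes THRA and SPHK2 were added after their values were seen. Some genes of the lists are counted but not reported here by name.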

Additional observations from a re-analysis of the deposited data

Results flagged for a closer look

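In 6 of 72 groups of 4 values examined, 1 replicate stood apart from the rest, its gap to the nearest other value as a share of the whole range being above Dixon's 95% critical value. Chance gives about 3.6. Control replicate 1 was the far value for PER1 (gap 0.980 of the range, lowest), ARNTL (0.907, highest), ARNTL2 (0.919, highest) and CSNK2B (0.866, lowest). Control replicate 2 was the highest for NR1D1 (0.847), and SB-treated replicate 4 the lowest for ARNTL2 (0.869). Over all genes, control replicate 1 was the value farthest from the control median for 67.0%, and for 7 of the 10 clock genes. Without control replicate 1 the log2 fold change of ARNTL was -0.64 (limma adjusted p = 3.22e-07), that of ARNTL2 0.44 and that of CSNK2B -0.42.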

How the results depend on the processing

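The calls of CLOCK, ARNTL, PER2, PER3, NR1D1, NR1D2 and DBP kept their direction and stayed past the threshold in all 17 alternative fits, 8 of which left out a sample. Their highest limma adjusted p was 0.0103, for NR1D2. The other members were less settled. PER1 turned to -0.11 with the GC and length correction, also with the replicate block added to it, and ranged from -0.067 to 0.091 when each sample was left out. CRY1 ranged from -0.029 to 0.062 over those fits, and CRY2 passed the threshold without TMM factors, at 0.20. With the replicate number as a block, the clock genes still gave 4 higher and 3 lower. Over all alternatives there were 4 to 5 higher and 3 to 4 lower, and of the other pathway genes 19 to 25 higher and 10 to 16 lower. Of 356 values of the called pathway genes that the naming rule picked, 355 kept direction and call under the alternatives, the exception being USP7 without TMM factors. Of the uncalled genes named besides, the GC and length correction turned the sign of RORA, NFIL3, BHLHE41 and SPHK2 (to -0.029). Without TMM factors 6253 of all genes rose and 3357 fell, in place of 4787 and 4740. With replicate block, exact sign flips over 4 pairs cannot go below p = 0.125, so the ratio differences of 1.40 (CLOCK/ARNTL), 0.79 (PER3/PER2), -0.65 (NR1D1/NR1D2) and -0.44 (PER1/PER2) do not pass there, which follows from the number of pairs. With a sample left out, 4 against 3 cannot pass either, and the differences ranged from 1.34 to 1.43, from 0.69 to 0.86, from -0.72 to -0.59 and from -0.53 to -0.36, while CRY1/CRY2 ranged from -0.18 to 0.0092. With the GC and length correction, made on log2(RPKM + 1), CRY1/CRY2 was 0.032. With a pseudocount of 1, PER1/PER2 was -0.31 (exact permutation test, adjusted p = 0.0714). The lowest read numbers in a library were 108 for DBP, 157 for NR1D1 and 178 for PER3.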
